A study of Mus musculus with 38 samples.

Results

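The mouse has 39 protein-coding Hox genes in 4 clusters, and the signal of nuclear lamina proteins over them was read here among the 21687 protein-coding genes and 78202 genes of all kinds in the deposited tables. Members were chosen by symbol alone (Hoxa, Hoxb, Hoxc or Hoxd followed by a paralog number). There are 11 Hoxa, 10 Hoxb, 9 Hoxc and 9 Hoxd genes. LAP2B, an inner nuclear membrane protein that is present in all 4 genotypes, was profiled by CUT&RUN, which uses an antibody-tethered nuclease to cut out the DNA next to its target. The cells were naive mouse embryonic stem cells (mESCs) and the epiblast-like cells (EpiLCs) made from them by 48 h of culture with FGF and Activin A. The genotypes were wild type (WT), a knockout of the lamin B receptor gene Lbr (LBRKO), a triple knockout of the lamin genes Lmna, Lmnb1 and Lmnb2 (TKO), and a quadruple knockout that lacks the lamins and LBR (QKO). LMNB1, the lamin protein itself, and a non-specific antibody control (IGG) were profiled in WT cells of both stages. Each of the 12 groups had 3 libraries of 200000 cells, and 2 H3K9me3 samples were not analysed here.

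The QKO cells were 1 clone, obtained from TKO cells by frameshift indels in Lbr, with an in-frame deletion on a single allele per the supplement of the study. WT and TKO were separate lines from littermates, and LBRKO cells were made from WT cells. The TKO line carries an extra chromosome 8, and some of the WT cells carry extra copies of chromosomes 6 and 8. The Hoxa cluster lies on chromosome 6. Clone, line and genotype cannot be told apart in the comparisons below, and the labels do not say whether replicates came from separate cultures, so p-values measure the spread between these libraries. Protein-DNA contacts do not show whether a gene is transcribed: neither the identity of the cells by their markers nor the loss of the 4 targeted proteins can be read from these values. The LAP2B density over Lbr itself was 0.782 of the median gene in naive WT and 1.73 in naive QKO libraries.

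Hox genes encode homeodomain transcription factors that set position along the head-to-tail axis. Within a cluster the genes are lined up in the order in which they are switched on, from the early, anterior paralog group 1 to the late, posterior group 13. In pluripotent cells the clusters are held silent, largely by Polycomb complexes, and they are rich in CpG dinucleotides. The nuclear lamina lies under the inner nuclear membrane, and lamins, LBR and LAP2B are among the proteins through which chromatin is held there.

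The clusters were placed on GRCm39 with GENCODE M39 coordinates. Hoxa spans chromosome 6 from 52132570 to 52237822 (105 kb, minus strand), Hoxb chromosome 11 from 96085106 to 96259082 (174 kb, plus strand), Hoxc chromosome 15 from 102829538 to 102945278 (116 kb, plus strand) and Hoxd chromosome 2 from 74498654 to 74595486 (96.8 kb, plus strand). Neighbouring members overlap: 13 of the 39 (6 Hoxa, 0 Hoxb, 5 Hoxc and 2 Hoxd) touch a 1 kb bin that another member also touches. Hoxa4, Hoxa5 and Hoxa6 lie wholly within the annotated span of Hoxa3. In the same way Hoxc6, Hoxc8 and Hoxc9 lie within Hoxc5, and Hoxd4 within Hoxd3. Their values reuse the same signal and are not independent.

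The 250 bases directly upstream of the annotated start of the canonical transcript are given for the member of each cluster with the largest naive QKO change. That change went with the GC content of whole genes, as given below, and its relation to these upstream bases was not tested. They are written 5′ to 3′ on the coding strand, with every CG dinucleotide in capitals. Hoxa10, a posterior gene with known roles in the uterus, is read at chr6:52211920-52212169 on the minus strand and holds 20 CG at 59.2% GC. Hoxb3, an anterior gene active in the hindbrain, is read at chr11:96213902-96214151 on the plus strand and holds 9 CG at 42% GC. Hoxc12, a posterior gene, is read at chr15:102844942-102845191 on the plus strand and holds 14 CG at 50% GC. Hoxd10, a posterior gene of limbs and spinal cord, is read at chr2:74521980-74522229 on the plus strand and holds 20 CG at 66% GC.
Hoxa10: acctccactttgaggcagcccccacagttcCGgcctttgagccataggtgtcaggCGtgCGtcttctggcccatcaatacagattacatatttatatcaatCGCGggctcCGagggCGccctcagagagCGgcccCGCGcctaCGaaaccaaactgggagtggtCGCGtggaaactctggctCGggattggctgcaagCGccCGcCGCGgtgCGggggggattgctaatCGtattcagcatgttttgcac
Hoxb3: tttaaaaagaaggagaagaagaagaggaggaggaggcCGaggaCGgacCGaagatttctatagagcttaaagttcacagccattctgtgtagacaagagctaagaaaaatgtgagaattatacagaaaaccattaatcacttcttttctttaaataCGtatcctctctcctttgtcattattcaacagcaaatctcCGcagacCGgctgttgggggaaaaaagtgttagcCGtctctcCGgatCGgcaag
Hoxc12: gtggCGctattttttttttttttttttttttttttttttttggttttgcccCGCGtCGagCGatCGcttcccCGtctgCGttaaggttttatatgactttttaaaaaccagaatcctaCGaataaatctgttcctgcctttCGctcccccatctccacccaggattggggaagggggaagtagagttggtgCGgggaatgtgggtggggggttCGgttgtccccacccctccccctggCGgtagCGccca
Hoxd10: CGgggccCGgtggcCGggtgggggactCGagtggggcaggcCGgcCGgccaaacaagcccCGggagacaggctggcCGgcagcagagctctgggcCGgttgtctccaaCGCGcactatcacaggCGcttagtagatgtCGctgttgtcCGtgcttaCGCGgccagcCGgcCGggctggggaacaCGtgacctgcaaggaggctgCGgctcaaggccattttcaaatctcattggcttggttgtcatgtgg

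Of the 39 Hox windows, 25 (64.1%) held 10 or more CG, against 43.4% of the windows of 21683 protein-coding genes. The letters TATAAA, searched on both strands, were found in 6 Hox windows (15.4%) and in 11.9% of all. Over whole gene bodies, median GC content was 52.1% for Hox genes and 45.2% for protein-coding genes, with 31.5 against 11.9 CG per kb. Members differed widely among themselves, from 1 CG in the Hoxc8 window to 43 in the Hoxa13 window.

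Deposited values are spike-in scaled coverage summed over the 1 kb bins that a gene touches. Whole reads could be recovered from them (12028659 to 45689196 per library, summed over the gene table), and a member had 4 to 3968 reads per library, with a median of 95 over all libraries and 42 in naive WT LAP2B. Levels are given as relative density, the value per bin divided by the median of the same quantity over all genes of the library, so that 1 is the median gene. Changes were tested with limma on log2 of the value relative to the library's median gene plus 0.1 (the relative scale) and again on the deposited values (the spike-in scale). The tested value is not divided by bins, so its library median is not that of density. A log2 change therefore need not equal the log2 ratio of the densities printed beside it. Hoxd1, for example, had a mean LAP2B density of 1.09 in naive WT and 1.24 in naive QKO, at a log2 change of -0.06. Genes with libraries that do not overlap were counted on the tested values. A change was called at a Benjamini-Hochberg adjusted p under 0.05 over the 70381 genes tested, among which were all 39 members. Tables of the 3 antibodies had been normalised separately, so tests stayed within an antibody.

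In naive WT cells the Hox genes were poor in both lamina proteins. Their median LAP2B density was 0.728, which placed the median member at the 22.6 percentile of genes, and LMNB1 density was 0.651 (percentile 22.8). The IGG control, in contrast, had a median of 1.21 (percentile 71.3). Hoxb had the lowest medians of both, with a LAP2B density of 0.608 (percentile 12.2) and an LMNB1 density of 0.487 (percentile 9.55). Among single members, mean LAP2B density ran from 0.413 at Hoxd10 to 1.09 at Hoxd1, the anterior end of the same cluster, and LMNB1 from 0.331 at Hoxb1 to 1.18 at Hoxd1. Averaged over members on the log2 scale, naive WT LAP2B levels were -0.42 ± 0.27 for Hoxa, -0.83 ± 0.48 for Hoxb, -0.46 ± 0.11 for Hoxc and -0.68 ± 0.29 for Hoxd (SD, n = 3). By level the order was Hoxa, Hoxc, Hoxd and Hoxb, and each neighbouring pair in it differed by less than the spread between libraries: Hoxc minus Hoxa was -0.04 ± 0.29, Hoxc minus Hoxd 0.22 ± 0.28 and Hoxb minus Hoxd -0.15 ± 0.21. Pairs further apart in the order differed by more in part. Hoxa stood above Hoxd by 0.26 ± 0.07 (0.18 to 0.31 in the libraries), and Hoxb minus Hoxa was -0.41 ± 0.27, while Hoxc minus Hoxb was 0.37 ± 0.43. Replicate 2 was the lowest naive WT library in Hoxa (-0.72), Hoxb (-1.38) and Hoxd (-1.02).

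**Figure D1:**
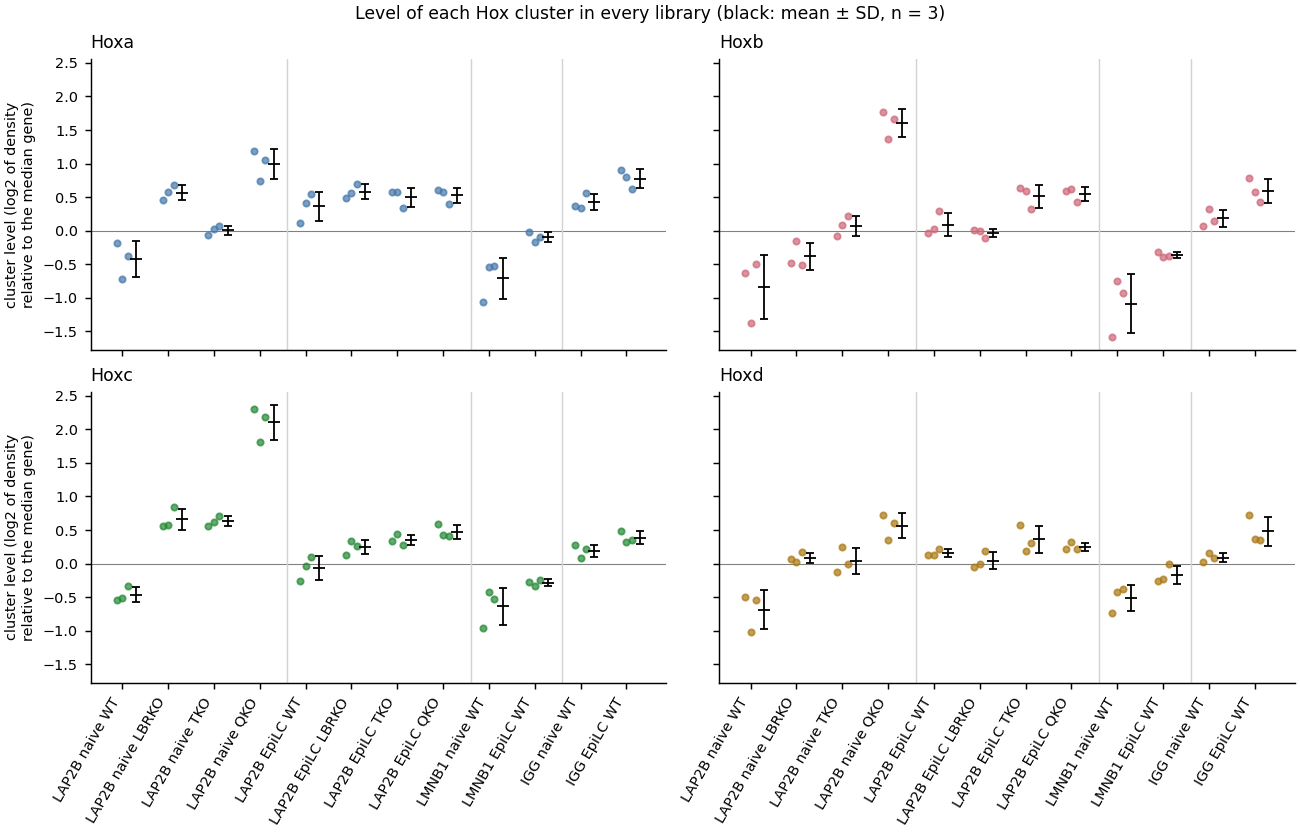
Each panel is 1 cluster; the vertical axis is the mean over its members of log2 relative density (0 is the median gene), and the horizontal axis lists the 12 groups of 3 libraries. Coloured points are libraries and black bars the mean ± SD; the mean of naive QKO LAP2B stands above the means of the other LAP2B groups in all 4 panels, at 2.10 in Hoxc and 0.56 in Hoxd, where its libraries overlap those of TKO EpiLCs.

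Naive QKO cells were compared with naive WT cells to ask how LAP2B signal is distributed once lamins and LBR are gone. On the relative scale 37 of the 39 Hox genes rose and none fell by limma at an adjusted p under 0.05, while 33.1% of all genes tested rose and 42.5% fell. No member fell at an unadjusted p under 0.05 or by edgeR either, and leaving out any 1 library left 33 to 37 members called. The 2 members that were not called were Hoxa13 (log2 change 0.24, 95% interval -0.29 to 0.77) and Hoxd1 (-0.06, -0.62 to 0.50). Values of the 3 QKO libraries lay above those of the 3 WT libraries for 37 members, against 33.3% of all genes. Median member density went from 0.728 in WT to 2.43 in QKO (percentile 79.3).

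With each library scaled to its median gene, the clusters differed in the size of that rise. Median log2 changes were 1.08 in Hoxa (10 of 11 called), 1.95 in Hoxb (10 of 10), 2.26 in Hoxc (9 of 9) and 0.76 in Hoxd (8 of 9), and the median was -0.23 over all genes and 0.25 over protein-coding genes. The cluster levels, which are taken from densities and not from the tested values, reached 1.00 ± 0.23, 1.60 ± 0.21, 2.10 ± 0.26 and 0.56 ± 0.19, in the same order. On a linear scale these are 1.99, 3.03, 4.30 and 1.48 times the median gene. Within each QKO library the order was Hoxc, Hoxb, Hoxa, Hoxd: Hoxc stood above Hoxd by 1.54 ± 0.07, Hoxb above Hoxd by 1.04 ± 0.02 and Hoxc above Hoxa by 1.11 ± 0.03, whereas in naive WT Hoxc stood above Hoxd by 0.22 ± 0.28. The order of Hoxa and Hoxb turned with the scaling. Relative to the median gene of their own chromosome, QKO levels were 1.19 ± 0.25 in Hoxa, 0.75 ± 0.07 in Hoxb, 1.85 ± 0.21 in Hoxc and 0.51 ± 0.18 in Hoxd, with Hoxa above Hoxb in 3 of 3 QKO libraries, and the median changes were 1.53, 1.09, 1.71 and 0.85. No p is given for these scores, since members of a cluster are neighbours.

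Hoxc had the highest median density of the clusters in naive QKO, 4.45. Hoxc12 had LAP2B densities of 0.443, 0.558 and 0.240 in the naive WT libraries (replicates 1 to 3) and 3.87, 3.10 and 4.08 in the naive QKO libraries, the largest change of any member (2.64 ± 0.26 SE, limma adjusted p = 5.6e-13). Hoxc13, at the posterior end and known from hair follicles, had 0.587, 0.491 and 0.478 in WT and 4.31, 3.04 and 4.13 in QKO. Both genes were therefore separated by a wide gap, with every QKO library above every WT library. Hoxc4, the anterior end, went from 0.850, 0.795 and 0.958 to 5.57, 3.73 and 4.84 (2.11 ± 0.14), and Hoxc10, a gene of the lumbar region, from 0.655, 0.891 and 1.03 to 4.5, 3.17 and 4.65. Hoxc6 reached the highest mean density of the 39 genes (5.94; 6.7, 4.96 and 6.15 in the libraries), and Hoxc8 changed least within the cluster (1.30 ± 0.26 SE), so both ends and the middle moved.

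Hoxb genes were next on the library-wide scale. Hoxb3 had 0.520, 0.270 and 0.644 in naive WT and 3.39, 2.45 and 2.86 in naive QKO (2.34 ± 0.18 SE, limma adjusted p = 1.5e-16). Hoxb13, which lies apart from the rest of its cluster and is known from the prostate and tail, had 0.5, 0.581 and 0.750 in WT and 4.63, 3.88 and 4.54 in QKO. Hoxb1, a hindbrain gene at the anterior end, had 0.696, 0.639 and 0.300 in WT and 2.54, 2.02 and 2.74 in QKO (1.70 ± 0.26). None of the 3 overlapped between genotypes, and the 10 Hoxb changes ran from 1.54 (Hoxb2) to 2.34.

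Hoxa and Hoxd genes had smaller changes on that scale, and 1 gene of each was not called; relative to its own chromosome, the Hoxa median passed that of Hoxb. Hoxa13, a gene of the digits and genitalia at the posterior end, had 0.893, 0.988 and 0.800 in WT and 1.39, 1.21 and 1.33 in QKO. The Hoxa13 groups did not overlap, yet the change was not called. Hoxa10 had 0.900, 0.430 and 0.530 in WT and 2.38, 1.80 and 2.44 in QKO (1.52 ± 0.20 SE, limma adjusted p = 2.7e-09), and Hoxa9, known from blood progenitors, 0.849, 0.762 and 0.600 against 1.48, 1.35 and 1.51 (0.66 ± 0.19 SE). In Hoxd it was the anterior end that was not called: Hoxd1 had 0.738, 1.40 and 1.13 in WT and 1.5, 1.13 and 1.09 in QKO, which overlap. Hoxd13, a digit gene at the posterior end, had 0.429, 0.407 and 0.5 against 0.839, 1.23 and 0.982 (0.74 ± 0.32 SE, limma adjusted p = 0.035), and Hoxd12 had 0.679, 0.523 and 0.925 against 2.05, 0.933 and 1.78. Hoxd10 rose most in its cluster, from 0.571, 0.116 and 0.550 to 2.00, 1.41 and 2.08 (1.72 ± 0.30 SE). Its 3 WT values rest on 32, 4 and 22 reads. The library with 4 reads enters every Hoxd10 change from naive WT and every Hoxd10 difference between the stages in this report.

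Changes in naive QKO went with base composition. Across 20852 protein-coding genes, which are not independent replicates, the log2 change correlated with gene GC content (Spearman's rho 0.69), and Hox genes are GC-rich. It also correlated with LMNB1 density in naive WT cells (rho -0.72), in which Hox genes were low, and with IGG density (rho 0.43), in which they were high. When the median of genes of like GC content (50 equal classes, an alternative chosen after the data were seen) was subtracted in each library, 24 members rose and 2 fell, while 31.5% of all genes rose and 34.5% fell. All 10 Hoxb and all 9 Hoxc genes stayed called as higher, with median changes of 0.84 and 1.51. In Hoxa and Hoxd the medians dropped to 0.29 and 0.14, and the 2 genes that fell were Hoxa13 (-0.86) and Hoxd1 (-1.1). Hoxa9 and Hoxd12, called as higher without this step, had changes of -0.13 and -0.39 with it, and neither was called. IGG was not measured in the mutants, so how the control moves with genotype was not tested.

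**Figure D2:**
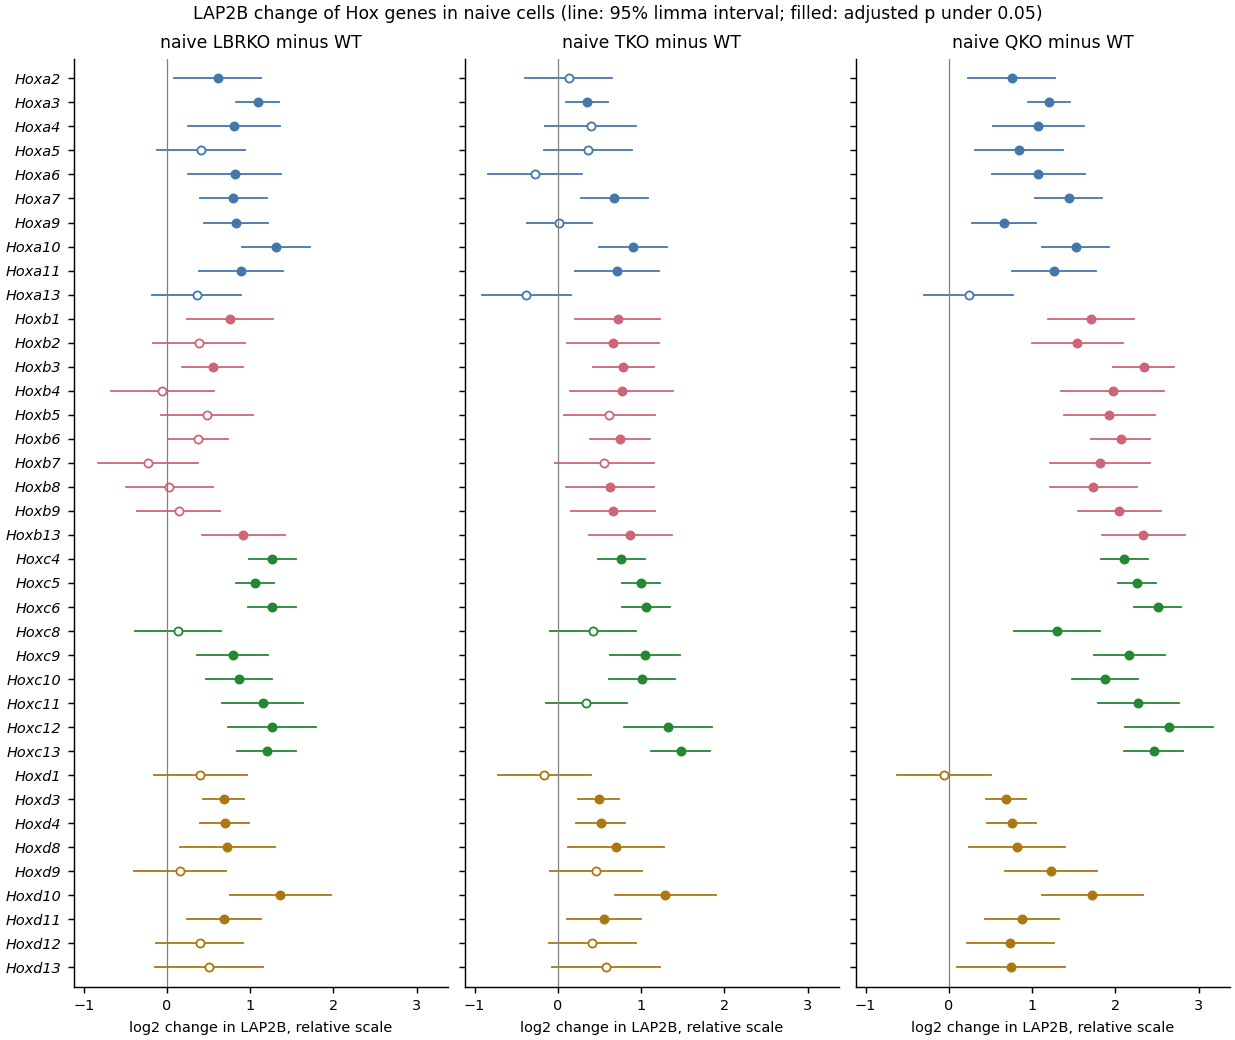
Panels give naive LBRKO, TKO and QKO against WT; the horizontal axis is the log2 change in LAP2B on the relative scale and each row is 1 of 38 Hox genes, coloured by cluster. Points are limma estimates, lines their 95% intervals, and filled points passed an adjusted p under 0.05; in QKO the Hoxb and Hoxc genes lie at 1.30 or more.

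The clusters lie in chromosome neighbourhoods that moved in unlike ways. Of the 16 other protein-coding genes within 500 kb of Hoxb, 16 rose in naive QKO, with a median log2 change of 2.08, from 1.25 at Skap1 to 2.92 at Igf2bp1. Around Hoxc, 21 of 25 rose and 1 fell (median 2.02), from -0.46 at Gtsf2 to 3.13 at Map3k12. Around Hoxa only 1 of 4 rose and 2 fell (median -0.09), and outside Hoxd 1 of 3 rose and 2 fell (median -0.68): Evx2, a homeobox gene next to Hoxd13, changed by 1.04, and Mtx2, beyond Hoxd1, by -0.82. The Hoxb and Hoxc medians of 1.95 and 2.26 stood beside 2.08 and 2.02 for the genes around them, and the Hoxa and Hoxd medians of 1.08 and 0.76 beside -0.09 and -0.68, with no test of these differences. In naive LBRKO, 4 of 4, 16 of 16, 23 of 25 and 3 of 3 neighbours of Hoxa, Hoxb, Hoxc and Hoxd rose. In naive TKO 0 of 4, 15 of 16, 18 of 25 and 1 of 3 rose, and 2 around Hoxa, 2 around Hoxc and 2 outside Hoxd fell. Over all genes 33.1% rose and 42.5% fell in QKO, 28.9% and 27.7% in LBRKO, and 21.8% and 27.6% in TKO. Whole chromosomes differed as well. Medians over non-Hox genes were 0.78 on chromosome 11 (Hoxb), 0.22 on chromosome 15 (Hoxc), -0.15 on chromosome 2 (Hoxd) and -0.66 on chromosome 6 (Hoxa). Copy number and LAP2B signal on chromosome 6 cannot be told apart.

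**Figure D3:**
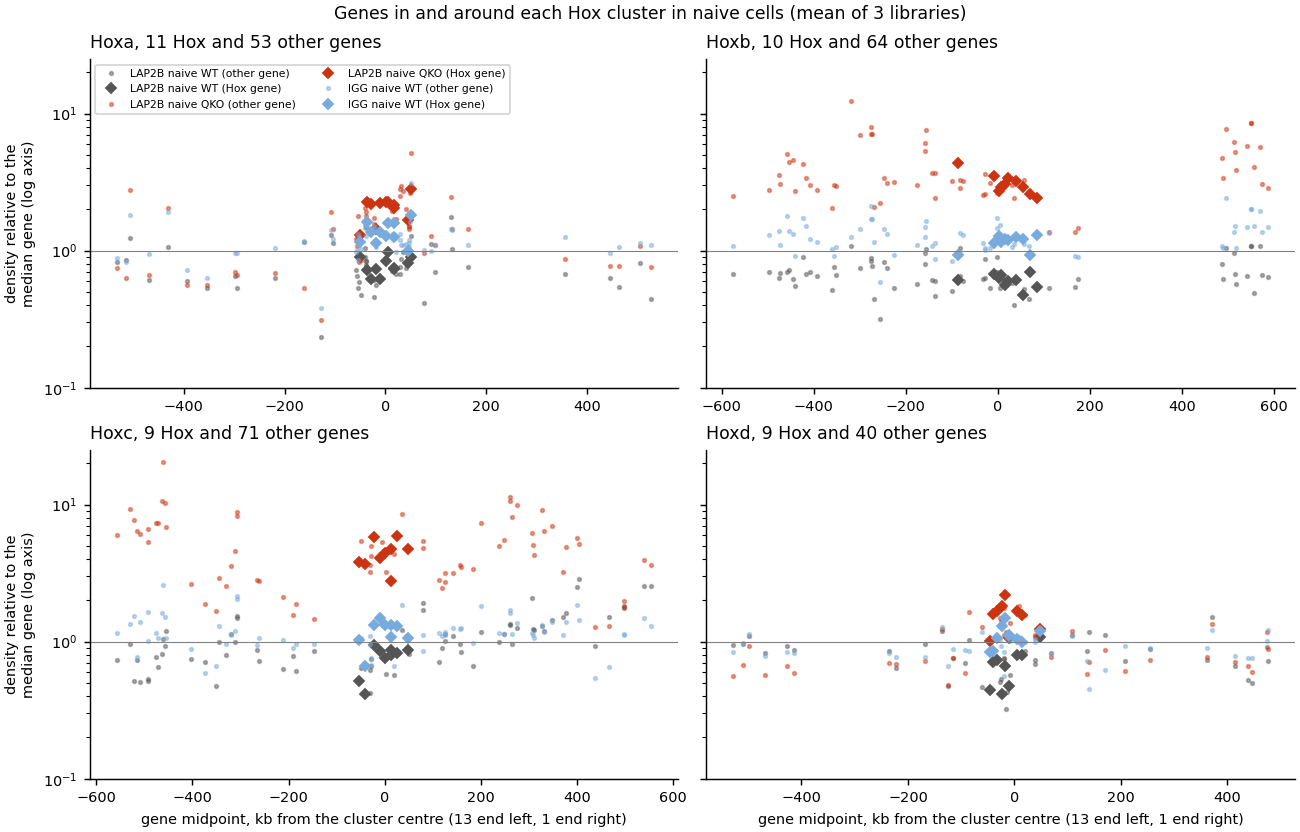
Genes within 500 kb of each cluster, except the longest, are plotted by distance in kb from the cluster centre (13 end left). Relative density is on a log axis, values are means of 3 naive libraries, diamonds are Hox genes and dots other genes of any kind. Skap2 and Hibadh (Hoxa), Skap1 and Zfp652 (Hoxb) and Gm28047 (Hoxc) are among the genes not drawn, but they enter the medians and ranges given here. Around Hoxb and Hoxc most QKO values (red) lie above WT (grey) inside and outside the cluster, where median densities of protein-coding neighbours were 3.08 and 5.07, and around Hoxa and Hoxd they were 0.961 (0.348 to 1.93) and 0.722 (0.581 to 1.27).

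Relative LAP2B was also higher over many Hox genes in naive cells that lacked LBR alone or the lamins alone. In naive LBRKO 25 members rose (28.9% of all genes rose, 27.7% fell) and none fell by limma (none at an unadjusted p under 0.05 either, nor by edgeR), with 9 of 11 Hoxa, 3 of 10 Hoxb, 8 of 9 Hoxc and 5 of 9 Hoxd genes. In naive TKO 24 rose (21.8% of all genes rose, 27.6% fell) and none fell, with 4 of 11 Hoxa, 8 of 10 Hoxb, 7 of 9 Hoxc and 5 of 9 Hoxd, and no member fell at an unadjusted p under 0.05 or by edgeR. The median changes of Hoxa, Hoxb, Hoxc and Hoxd were 0.81, 0.38, 1.15 and 0.68 in LBRKO and 0.36, 0.69, 1.01 and 0.52 in TKO. Over all genes they were 0.04 and -0.11, and over protein-coding genes 0.30 and 0.11. Non-Hox genes of chromosomes 6, 11, 15 and 2 had medians of 0.26, 0.38, 0.13 and 0.17 in LBRKO. In TKO these were -0.31, 0.24, 0.11 and -0.10. The Hoxb median in LBRKO was thus no higher than that of its chromosome, 11, and its 3 of 10 called genes stood beside 28.9% of all genes. The 3 mutants share their WT libraries, so these counts are not independent of each other. Without naive WT replicate 2, the lowest library, 21 members were called in LBRKO, 17 in TKO and 33 in QKO. The shares of all genes in these fits are not given.

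Hoxa9 was called in LBRKO and not in TKO. It had 1.09, 1.47 and 1.71 in LBRKO, above all WT libraries, and 0.659, 0.825 and 0.907 in TKO, which overlapped WT (log2 changes 0.83 and 0.02). Hoxb9 lay the other way, at 0.14 in LBRKO (95% interval -0.36 to 0.64) and 0.66 in TKO (0.16 to 1.16). Whether LBRKO and TKO differed at a given gene was not tested.

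Hoxc13 and Hoxd10 rose in both. Hoxc13 had 1.26, 1.18 and 1.52 in LBRKO (1.20 ± 0.18 SE) and 1.58, 1.5 and 1.87 in TKO (1.47 ± 0.18 SE). Hoxd10 had 1.40, 0.776 and 1.45 in LBRKO and 1.25, 0.756 and 1.54 in TKO, with log2 changes of 1.36 and 1.29. In both genes every mutant library was above every WT library. Hoxa13 changed by 0.36 and -0.38, and neither was called. With GC content subtracted as above, 16 members rose in LBRKO (none of them Hoxb; 25.3% of all genes), and 12 rose and 3 fell in TKO (20.0% and 18.1% of all genes). Gene GC content correlated with the changes at rho 0.46 and 0.67. Fitted on their own groups alone, TKO and WT gave 15 called members.

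Paralog groups 4, 9 and 13 have a member in each cluster, which allows like genes to be set side by side. In naive QKO, group 4 changed by 1.08 (Hoxa4), 1.97 (Hoxb4), 2.11 (Hoxc4) and 0.76 (Hoxd4). Group 9 changed by 0.66, 2.05, 2.17 and 1.23 in the same order of clusters, and group 13 by 0.24, 2.33, 2.46 and 0.74. With library-wide scaling, the 95% intervals of the Hoxb and Hoxc members lay above those of their Hoxa paralogs in groups 9 and 13: Hoxa13 reached up to 0.77 and Hoxb13 down to 1.83. For group 4 the Hoxa4 interval (0.53 to 1.62) met that of Hoxb4 (1.35 to 2.58).

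On the spike-in scale, which keeps differences in total LAP2B signal, the naive QKO result split by cluster. There 14 members rose (10.1% of all genes), namely 6 Hoxb and 8 Hoxc genes, and 3 fell (65.5% of all genes), namely Hoxa13 (-0.83), Hoxd1 (-1.07) and Hoxd3 (-0.54). The median of all genes was -1.24 on that scale. In naive TKO 3 members rose (2.43% of all genes), Hoxc12, Hoxc13 and Hoxd10, and Hoxa13 fell (47.5% of all genes fell), with an all-gene median of -0.65. This count of 4 is unsteady: it was 2 without TKO replicate 1 or replicate 3, 7 without TKO replicate 2, and 1 in a fit on the compared groups alone or with a pseudocount of 1. In naive LBRKO 25 rose (28.2%). A direction for Hoxa and Hoxd genes in naive QKO therefore holds relative to other genes of the library: on the spike-in scale Hoxa10 was not called, and Hoxa13 changed sign.

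In WT cells relative LAP2B over Hox genes was higher in EpiLCs than in naive cells. LAP2B in EpiLCs was set aside by the study as a proxy for lamina-associated domains, since part of its signal fell outside them, and the EpiLC LAP2B values here are levels of LAP2B signal and not of lamina contact. From naive cells to EpiLCs 26 members rose on the relative scale (15.1% of all genes) and none fell by limma, nor at an unadjusted p under 0.05 or by edgeR. They were 8 Hoxa, 6 Hoxb, 5 Hoxc and 7 Hoxd genes, with a median change of 0.69 over the 39 members and -0.07 over all genes. Hoxb1 changed most, from 0.696, 0.639 and 0.300 to 1.41, 1.21 and 1.79 (1.31 ± 0.26 SE, limma adjusted p = 9.2e-05), and the groups did not overlap. Hoxd10 went from 0.571, 0.116 and 0.550 to 0.948, 0.971 and 1.28, and Hoxd13 from 0.429, 0.407 and 0.5 to 1.1, 1.01 and 1.25. Hoxb13 did not pass (0.33 ± 0.25 SE), nor did Hoxc10 (0.17 ± 0.20 SE). Without naive WT replicate 2 the count was 15, and 15 after GC content was subtracted (13.6% of all genes). On the spike-in scale 19 rose (10.4% of all genes), but 4 without EpiLC WT replicate 3.

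LMNB1 was read in the same cells, with no test between the antibodies. By limma 6 members rose in EpiLCs (6.34% of all genes rose): Hoxa3, Hoxa9, Hoxa10, Hoxb1, Hoxb3 and Hoxd3. At an unadjusted p under 0.05, 17 passed, and the share of all genes was not computed for that cut. With TMM, edgeR called 7 members, among 9541 of 70381 genes called in either direction. EpiLC libraries lay above naive libraries for 17 members, against 15.3% of all genes. Hoxb1 had LMNB1 densities of 0.533, 0.294 and 0.167 in naive cells and 0.569, 1.13 and 1.31 in EpiLCs (1.32 ± 0.33 SE, limma adjusted p = 0.011), and its EpiLC replicate 1 was close to the highest naive library. Hoxa9 had 0.304, 0.654 and 0.490 against 0.904, 0.951 and 0.832 (0.88 ± 0.25 SE). Hoxc10 (0.600, 0.686 and 0.445 against 1.02, 0.938 and 0.905) and Hoxd12 (0.433, 0.647 and 0.734 against 0.927, 0.844 and 1.16) did not overlap either, but missed the adjusted threshold. Median density stayed below that of the median gene, at 0.651 in naive cells and 0.897 in EpiLCs (percentile 34.4). On the spike-in scale 8 rose (8.01% of all genes). These counts rest on single libraries: leaving out 1 library gave 1 (without EpiLC replicate 1 or 3), 3 (without naive replicate 1 or 3) or 10 (without naive replicate 2) on the relative scale, and 0 to 17 on the spike-in scale.

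The IGG control also tended higher at Hox genes in EpiLCs, with no member called by limma. Of 39 members, 34 had a positive log2 change in EpiLCs (median 0.32, against -0.02 over all genes), and IGG density went from 1.21 to 1.5. By limma 0 were called (0.0725% of all genes were called as higher), and 9 passed at an unadjusted p under 0.05. For that unadjusted cut the share of all genes was not computed on either scale. With TMM, edgeR called 2, among 528 of 70381 genes called in either direction. Libraries did not overlap for 11 members (7.39% of all genes). Hoxb13 (0.429, 1.41 and 0.966 in naive cells, 1.60, 1.46 and 1.80 in EpiLCs) had the largest estimate, at 0.79 ± 0.30 SE. On the spike-in scale 0 were called and 29 passed before adjustment, but 24 were called without EpiLC replicate 3, among 11685 of the 70381 genes. That shift was general: on this scale the EpiLC libraries lay above the naive libraries for 54.5% of all genes and for 33 members. The control thus moved in the same direction as LAP2B and LMNB1. Whether their stage changes exceed that of the control was not tested, since the tables were normalised separately.

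**Figure D4:**
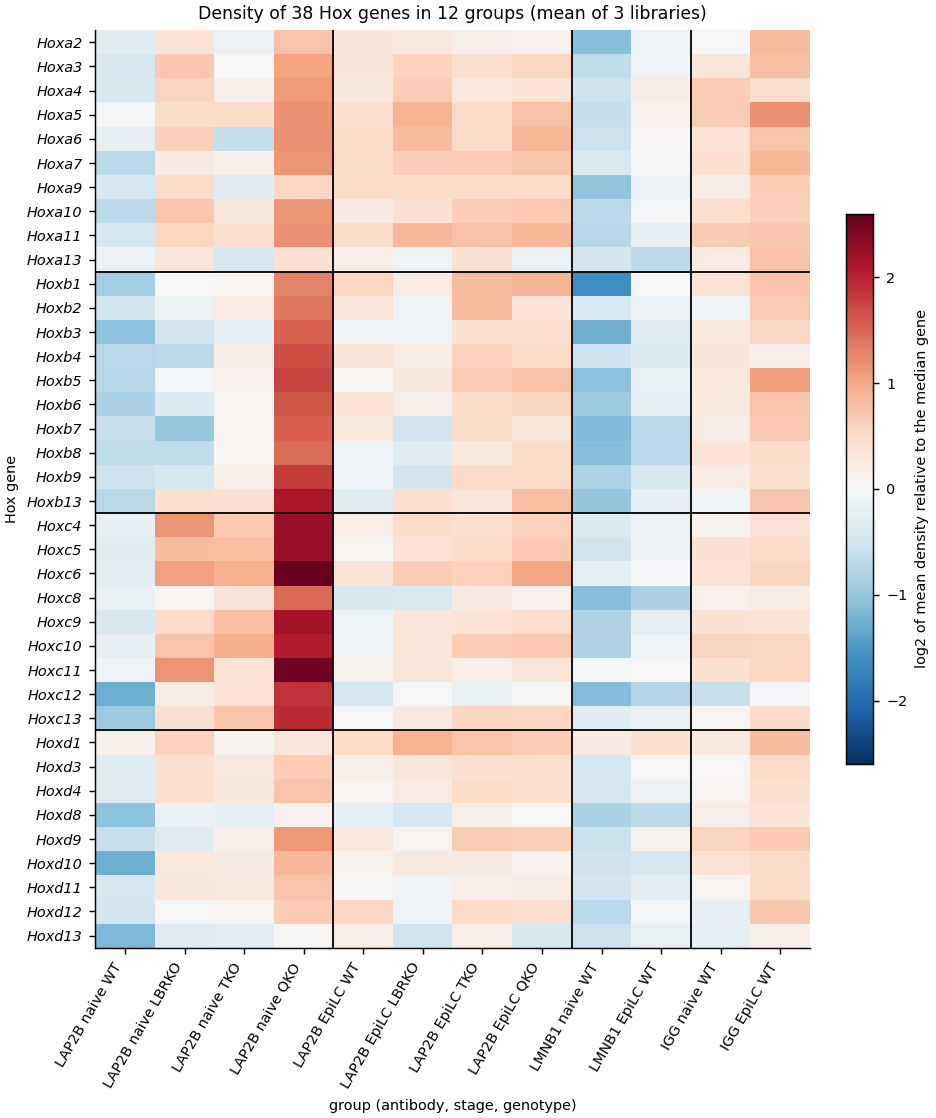
Rows are 38 Hox genes in order of cluster and paralog group, columns the 12 groups, and colour is log2 of the mean relative density of 3 libraries (white at the median gene, red above, blue below). Naive WT LAP2B and LMNB1 columns are mostly blue, and the Hoxb and Hoxc rows of naive QKO are the darkest red, up to a density of 5.94 at Hoxc6.

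In EpiLCs fewer Hox genes were called. By limma 2 members rose in LBRKO (Hoxb13 and Hoxc5, 13.3% of all genes), 5 in TKO (Hoxb3, Hoxc5, Hoxc10, Hoxc13 and Hoxd4, 8.68% of all genes) and 7 in QKO (Hoxb3, Hoxb13, Hoxc5, Hoxc6, Hoxc9, Hoxc10 and Hoxc13, 18.3% of all genes), and none fell, while 10.1%, 9.97% and 17.8% of all genes fell. The share of members that rose in QKO was thus no larger than that of all genes, and in LBRKO it was smaller. At an unadjusted p under 0.05, 3 fell in LBRKO and none in TKO or QKO, and the share of all genes was not computed for that cut. Hoxb13 changed most in QKO, with 0.611, 1.09 and 0.697 in WT and 1.49, 1.79 and 1.87 in QKO EpiLCs (0.96 ± 0.25 SE, limma adjusted p = 0.0019), and the groups did not overlap. Hoxc10 went from 0.955, 0.784 and 1.13 to 1.44, 1.68 and 1.68. No Hoxa gene was called in any of the 3 mutants, nor any Hoxd gene in LBRKO or QKO. Of the neighbours, 14 of 16 around Hoxb and 22 of 25 around Hoxc rose in QKO EpiLCs, and 0 of 4 around Hoxa and 0 of 3 around Hoxd; limma called none of them as lower. The counts are small and rest on single libraries: LBRKO gave 0 without its replicate 2 or WT replicate 1 and 4 without WT replicate 2, TKO gave 1 without its replicate 2 or WT replicate 1, and QKO gave 4 without its replicate 1 or 2 or WT replicate 1. After GC content was subtracted, 1 member rose and 2 fell in LBRKO (13.1% and 9.74% of all genes). None was called in TKO (4.13% of all genes rose and 3.62% fell), and 2 rose and 1 fell in QKO (14.0% and 10.8%).

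The difference between the stages was tested directly as an interaction. For QKO, 33 of 39 members had a lower log2 change, with its sign, in EpiLCs than in naive cells (20.9% of all genes). They were all 10 Hoxb and all 9 Hoxc genes, 8 Hoxa and 6 Hoxd genes. Hoxc12 gave the largest difference, -2.26 ± 0.37 SE, between a naive change of 2.64 and an EpiLC change of 0.38. For LBRKO 11 members differed (9.55% of all genes), and for TKO 4 (3.81%), all of them Hoxc genes (Hoxc5, Hoxc6, Hoxc12 and Hoxc13). Without EpiLC WT replicate 3 these became 7 and 2. The WT libraries of both stages enter each interaction, and the WT level itself rose between the stages. No contrast between the stages was made within QKO, where Hoxc12 had 1.08, 0.888 and 1.1 in QKO EpiLCs against 3.87, 3.10 and 4.08 in naive QKO. After GC content was subtracted, 20 members were lower in this contrast for QKO (18.0% of all genes).

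On the spike-in scale QKO EpiLCs had less LAP2B than WT at part of the Hox genes. There 14 members fell (55.7% of all genes), 6 Hoxa, 3 Hoxb, 0 Hoxc and 5 Hoxd genes, with Hoxd13 lowest (-1.39) and an all-gene median of -0.76. No member rose, and 0.118% of all genes did. In LBRKO and TKO EpiLCs no member was called by limma (1 and 0 at an unadjusted p under 0.05). Of all genes, 5.55% rose and 3.47% fell in LBRKO, and 0.0995% rose and 9.36% fell in TKO. No other tool was run on this scale. Single libraries set the QKO count, which was 4 without WT replicate 3, 7 without QKO replicate 3, 8 without QKO replicate 2 and 9 without WT replicate 1.

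**Figure D5:**
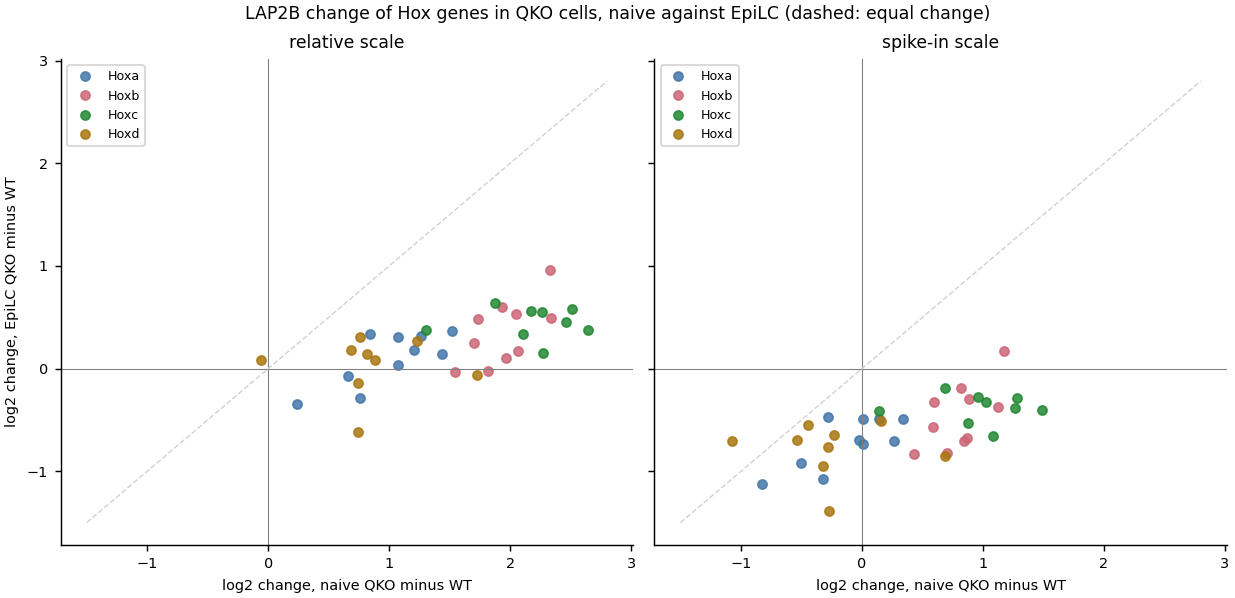
Each point is 1 of 38 Hox genes, with its log2 LAP2B change in naive QKO (horizontal) and in QKO EpiLCs (vertical), on the relative scale (left) and the spike-in scale (right); the dashed line marks equal change. On the left all but Hoxd1 lie at or right of 0.24 and most lie under the dashed line, and on the right Hoxb and Hoxc genes keep positive naive changes while most EpiLC changes are negative.

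Genes that act with the Hox genes were read from fixed lists. Among 9 cofactors of the TALE homeodomain class, which bind DNA together with Hox proteins, 5 rose and 3 fell in naive QKO, where 33.1% of all genes rose and 42.5% fell. Cofactor changes ran from -1.99 to 3.63, with a median of 0.28. Pbx2 changed by 3.63 ± 0.21 SE and Pknox1 by 2.04 ± 0.13, while Meis1 changed by -1.16 ± 0.10. Among 8 upstream, neighbouring and ParaHox genes 5 rose and none fell, with Cdx4, an activator of posterior Hox genes, at 1.71 ± 0.22 and Cdx2 at 1.27 ± 0.18. Of 8 chromatin regulators of Hox genes 6 rose and none fell: Men1, a subunit of the activating MLL complex, changed by 2.88 ± 0.21, the Polycomb subunit Suz12 by 2.05 ± 0.12, and the Polycomb methyltransferase Ezh2 by -0.04 ± 0.11. Of 18 homeobox genes of other clusters, Dlx and Irx genes among them, 10 rose and 2 fell, from -1.25 at Irx6 to 2.05 at Dlx1. Their median of 0.57 lay below the 1.52 of the Hox genes, and no test was made of that difference.

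RNA genes in or beside the clusters were read in the same way. Of 10, 8 rose in naive QKO and none fell, with a median of 1.27, where 33.1% of all genes rose and 42.5% fell. Hotair, a long non-coding RNA between Hoxc11 and Hoxc12, changed by 2.22 ± 0.19 SE and Mir615, within the Hoxc cluster, by 2.12 ± 0.29. Hottip, just beyond the posterior end of Hoxa, changed by 0.41 ± 0.22 and Mir10b, in Hoxd, by 0.36 ± 0.31, and neither was called. These genes lie among or next to Hox genes and are not independent of them.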

How the data were processed

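CUT&RUN of LAP2B (24 libraries), LMNB1 (6) and IGG (6) was analysed. Per the study's methods and the submitters' processing notes, the authors aligned read pairs to mm39 with Bowtie2 (2.3.5.1), filtered them with SAMtools (1.10), computed RPKM coverage with deepTools and scaled it by yeast spike-in reads. Deposited signal values were taken as the sum of this coverage over the 1 kb bins a gene touches, a step that is inferred from the values. They were whole multiples of 1 step per library (within 0.05 of a step in 100% of values), so whole reads could be recovered. Replicates differed by more than sampling noise (chi-square per degree of freedom 3.37 to 12.6), and no interval from counting error is given.

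Coordinates were those of GENCODE M39. Genes were tested with limma 3.58.1 (R 4.3.3; lmFit, eBayes with trend, two-sided), 1 model per antibody and no replicate block, after the lowest 0.1 of genes by mean was left out. Log2 was taken after adding 0.1 of the median gene, so fold changes of low genes are understated. Alternatives were edgeR 4.0.16 (quasi-likelihood, TMM or RLE) on recovered reads, pseudocounts of 0.01 and 1, no filter, other library scalings, a replicate block, leaving out each library, and subtraction of gene GC classes. With TMM, edgeR called 52368 of 70381 genes in naive QKO, 37 of them Hox genes. Scripts were tested on simulated data. Named genes are cluster ends, the largest naive QKO and LMNB1 stage changes, protein-coding genes within 500 kb and members of 5 lists. Other members are named where they set a range, a count or a paralog group, chosen after their values were seen. The members and lists were chosen with earlier results of these data known. All 39 members enter the counts and cluster levels, but values of some genes are not reported here.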

Additional observations from a re-analysis of the deposited data

Results flagged for a closer look

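A change that differed between naive cells and EpiLCs by the interaction contrast of limma (adjusted p under 0.05 over all genes tested) was the reason for a closer look. It covered 11 Hox genes for LBRKO, 4 for TKO and 33 for QKO. In the same direction 9.55%, 3.81% and 20.9% of all genes were called, and 10.2%, 5.79% and 24.9% in the other. Values below are the EpiLC change minus the naive change in log2 on the relative scale, and all are negative.

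For LBRKO, the named members were Hoxa9 (-0.89), Hoxa10 (-1.18), Hoxb1 (-1.09), Hoxc4 (-0.97), Hoxc13 (-0.96) and Hoxd10 (-1.21). For TKO they were Hoxc12 (-1.11) and Hoxc13 (-0.93). For QKO, the Hoxc members gave -1.77 (Hoxc4), -1.23 (Hoxc10), -2.26 (Hoxc12) and -2.01 (Hoxc13), and the Hoxb members -1.45 (Hoxb1), -1.85 (Hoxb3) and -1.38 (Hoxb13). The Hoxa members gave -0.73 (Hoxa9) and -1.16 (Hoxa10), and the Hoxd members -1.78 (Hoxd10), -0.88 (Hoxd12) and -1.36 (Hoxd13).

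Hoxc13 was called for all 3 mutants, which share the WT libraries. In the WT libraries LAP2B rose from naive cells to EpiLCs by 0.90 at Hoxc13 and 1.30 at Hoxd10. Such a WT change enters each interaction with a negative sign. Of the 39 members, 13 were not called in that WT contrast, Hoxb13 and Hoxc10 among them. Each interaction is the stage change of the mutant minus that of WT. From naive cells to EpiLCs, mean Hoxd10 density went from 0.413 to 1.07 in WT. It went from 1.21 to 1.19 in LBRKO and from 1.83 to 1.06 in QKO. Mean Hoxc13 density went from 0.519 to 0.993 in WT and from 1.32 to 1.20 in LBRKO. In TKO it went from 1.65 to 1.48, and in QKO from 3.83 to 1.46. No stage contrast was run within a mutant.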

How the results depend on the processing

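All counts of members called in the naive mutants on the relative scale kept their direction, except that 3 fell in TKO and 2 in QKO once gene GC content was subtracted, and the naive QKO count stayed at 33 to 38 outside that setting. Subtracting gene GC (chosen after seeing the data) gave 16 for naive LBRKO, 15 for naive TKO, 15 for the WT LAP2B stage change, 0 and 3 for TKO and QKO EpiLCs (1 of the 3 lower), and 6 and 20 for the LBRKO and QKO interactions. With that setting Hoxd12 (-0.39), Hoxa9 (-0.13) and Hoxa13 (-0.86) reversed in naive QKO. Fitting only the groups compared gave 15 for naive TKO, 17 (relative) and 11 (spike-in) for the LAP2B stage change and 1 for naive TKO on the spike-in scale. Dividing by the library mean gave 2 for IGG, 10 for LMNB1, 17 and 7 for the LBRKO and TKO interactions and 0 for LBRKO EpiLCs. Dividing by the chromosome median gave 1, 1 and 4 for LBRKO, TKO and QKO EpiLCs. The edgeR test gave 2 for IGG, 1 for LBRKO EpiLCs and 3 for TKO EpiLCs with TMM and with RLE. A pseudocount of 1 gave 1 for IGG and 1 for naive TKO on the spike-in scale, and one of 0.01 gave 1 for LBRKO EpiLCs. Most of these counts are given without the share of all genes at the same setting. Whether the members or all genes moved cannot be read from them, and the cause of these shifts was not tested.

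Leaving out 1 library at a time gave, on the relative scale, 15 to 26 for the LAP2B stage change, 1 to 10 for LMNB1, 0 to 4, 1 to 5 and 4 to 8 for LBRKO, TKO and QKO EpiLCs, and 7 to 14 and 2 to 5 for the LBRKO and TKO interactions. On the spike-in scale it gave 0 to 24 for IGG, 4 to 24 for the LAP2B stage change, 0 to 17 for LMNB1, 4 to 19 for QKO EpiLCs and 2 to 7 for naive TKO. Shares of all genes are not given beside these ranges.

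Cluster levels in naive cells moved with the chromosome median: Hoxa to -0.79 (WT LAP2B), -1.14 (LMNB1) and 0.26 (IGG), Hoxb to 0.75 (QKO, below the 1.19 of Hoxa) and 0.027 (IGG), and Hoxc to -0.29 (WT LAP2B) and -0.32 (LMNB1). Not divided by bins, Hoxc levels were 2.77 (QKO), 0.49 (WT LAP2B), 0.32 (LMNB1) and 1.18 (IGG). Hoxd levels were -0.38 (WT LAP2B), -0.20 (LMNB1) and 0.44 (IGG), and the Hoxa IGG level was 0.66. Undivided values are sums over the bins a gene touches, and each member still has the same weight in a level. The median over members gave -0.33 for Hoxc in WT LAP2B.

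Replicate numbers did not pair the libraries: same-numbered correlations were -0.25 to 0.18, and in none of 30 pairs of groups were all 3 over 0.1. With the number as a replicate block the LMNB1 spike-in count went from 8 to 0, and no other count moved by over 1.5 times (37 for naive QKO). Depth limits naive WT LAP2B most, where members had 4 to 571 reads.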

Other observations

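The lists of related genes were also read in the other comparisons. In naive LBRKO, 7 of the 8 upstream, neighbouring and ParaHox genes rose and none fell, as did 6 of 8 chromatin regulators and 6 of 10 RNA genes in or beside the clusters. Of the cofactors 4 rose and 3 fell, and of the other clustered homeobox genes 7 rose and 1 fell, while 28.9% of all genes rose and 27.7% fell. In naive TKO these counts were 4 of 8, 6 of 8, 3 of 10, 4 higher and 3 lower of 9, and 8 higher and 1 lower of 18, beside 21.8% and 27.6% of all genes. Pbx2 changed by 1.17 ± 0.21 SE in LBRKO and 1.90 ± 0.21 in TKO.

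Between the stages in WT cells, LAP2B rose at 5 and fell at 4 of the 9 cofactors, and rose at 7 of the 10 RNA genes and at 1 of the 8 upstream and ParaHox genes. It rose at 5 and fell at 1 of the 8 chromatin regulators, and rose at 7 and fell at 3 of the 18 other clustered homeobox genes, beside 15.1% and 17.1% of all genes. In QKO EpiLCs 4 cofactors rose and 3 fell, and 4 chromatin regulators, 1 upstream or ParaHox gene, 1 RNA gene and 3 other clustered homeobox genes rose, and 1 of the latter fell, beside 18.3% and 17.8% of all genes.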
